A study of Drosophila melanogaster with 6 samples.

Results

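Described here are genes of calcium release from the endoplasmic reticulum (ER), of the calcium entry that follows and of ER refilling, and septin genes. They are the IP3 receptor gene Itpr, the store-operated calcium entry genes Stim and Orai, the pump gene SERCA, and the septin genes pnut, Septin1, Septin2, Septin4 and Septin5. Every transcript that belongs to one of these genes by RefSeq gene name was taken, which gave 35 transcripts of 9 genes, out of 34115 transcripts in all. Of the 35, 16 were listed at 0, 19 had reads, and 7 transcripts of 6 genes had a base mean of at least 10. The base mean, given below in normalized counts, averages the authors' size-factor-scaled read counts over all libraries.

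RNA was sequenced from the central nervous system of third-instar Drosophila melanogaster larvae, 84 h after egg laying and reared at 25 °C, with 15 nervous systems pooled for each sample. The 3 knockdown samples carried 1 copy of an RNAi transgene against dSET2 (gene Set2, a histone H3 lysine 36 methyltransferase) together with elavC155GAL4, an insertion in the elav gene on the X chromosome that drives GAL4 in neurons. The 3 control samples carried the same transgene over Canton S, a wild-type strain, with no GAL4. RNA of glia and other cells, which this driver is not meant to target, is in the same samples.

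The 2 deposited tables, one of edgeR and one of DESeq2 results, hold no values per sample. As far as base means up to 0.5 go, they are whole-number sums of 4 single-read steps, against 6 labelled samples, and samples summed beforehand would share a step. The 4 libraries with these steps carry no labels and are called A, B, C and D. Their size factors were 1.48 for A, 0.902 for C, 0.701 for D and 1.11 for B. A transcript with a single read was positive in fold change, in either table, when the read was in A, C or D and negative when it was in B. Below, positive values therefore stand for more RNA in A, C and D than in B, and negative values for more in B, which has no replicate. Which side is the knockdown is not stated, and Set2 does not settle it: its transcript NM_132660 had 10, 21 and 0 reads in A, C and D against 36 in B, and the authors' deposited table gave it an edgeR false discovery rate of 1.

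As background, IP3 made by phospholipase C opens the IP3 receptor, and calcium leaves the ER. Stim is the ER membrane protein that senses the emptied store, Orai is the plasma-membrane channel that Stim opens, and SERCA pumps calcium back into the ER. Septins are GTP-binding proteins that form filaments at the cell cortex and at the cleavage furrow, and in Drosophila neurons pnut is known to hold back entry through Orai.

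None of the 19 transcripts with reads was past the threshold, a false discovery rate under 0.05, by edgeR (the authors' deposited table), where 1.93% of the 15342 transcripts with reads were, 27 positive and 269 negative. By DESeq2 (the authors' deposited table) 0 of the 11 with an adjusted p-value passed, against 2.26% of 9221. At an unadjusted p-value under 0.05 there was 1 of 19 in the edgeR table, against 6.32% of all, and 0 of 19 in the DESeq2 table, against 3.77%. The sign was the same in both tables for all 19, which is no independent support because both tables compare the same libraries. Among the 7 whose base mean was at least 10, 6 had a positive fold change in the edgeR table, against 51.3% of the 7180 such transcripts. Their median log2 fold change was 0.36, within -0.04 to 1.74, and that of the 7180 was 0.01. Members and genes were chosen with results of these data known, so these counts describe the genes and are no independent support for a direction.

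Most exonic bases of these genes are shared between transcripts. Of the 10331 exonic bases of Itpr in the BDGP6.54 annotation, 98.1% lie in all 3 of its transcripts and 199 bases belong to a single transcript. For Stim 614 bases of 2973 belong to a single transcript, for Orai 329 of 5330, for SERCA 3914 of 8264 and for pnut 582 of 3027. Septin1 has 1 transcript, so that all 2026 of its bases are its own. Over 7227 genes with several transcripts and equal transcript numbers in the annotation and the tables, transcripts with reads never outnumbered transcripts with at least 1 base of their own. This held although 12265 of those 23477 transcripts have no base of their own. Itpr had 2 transcripts with reads and 2 with bases of their own, and Orai likewise. SERCA had 5 with reads and 6 with bases of their own, Stim 2 and 3, and Septin4 3 and 4. Over all genes with several transcripts in the tables, 68.0% of 24383 transcripts were listed at 0, against 22.2% of the transcripts of genes with 1. A base mean is therefore not the level of the whole gene, except for Septin1, and levels are not compared between genes. Transcripts of the same gene also differ in bases of their own, from 0 to 2155 in SERCA and from 0 to 374 in Septin4. The share of a transcript in the summed base mean of its gene is therefore not read as its share of the gene's RNA.

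Itpr, on chromosome arm 3R, encodes the release channel itself and had the largest fold change among the 7 better-covered transcripts named above. NM_001300251 held 13 reads in A, 11 in C and 12 in D, against 4 in B. In normalized counts this was 8.78 in A (95% interval 4.68 to 15.0), 12.2 in C (6.09 to 21.8) and 17.1 in D (8.84 to 29.9), against 3.60 in B (0.982 to 9.23). B was the lowest of the 4 libraries, the groups did not overlap, and the counting interval of B overlapped that of each other library. With only 4 libraries, B was also the lowest for 24.3% of the 4074 transcripts with a base mean from 3 to 30. By edgeR (the authors' deposited table) the log2 fold change was 1.74 (unadjusted p-value 0.115, false discovery rate 1). By DESeq2 (the authors' deposited table) it was 0.80 ± 0.658 (standard error), an interval of -0.49 to 2.09, with an adjusted p-value of 0.9999. Of the 1449 transcripts with a base mean within 1.5-fold of this one, 41 were past the edgeR threshold, 2 of them positive like Itpr, and the smaller of those 2 was 7.11. The smallest of the 41 in either direction was 2.79 log2 units in size. A second transcript, NM_169060, had 1 read, in C, and NM_169061 was listed at 0. The Itpr span overlaps Nmdar1 and CG43845 on the opposite strand and an INE-1 element on its own strand, and whether counting used strand is not given in the sources used here.

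Stim, the ER calcium sensor, is X-linked. Its best-covered transcript NM_206747 held 34 reads in A, 21 in C and 12 in D, against 18 in B. The normalized counts were 23.0, 23.3 and 17.1 in A, C and D, against 16.2 in B. B was the lowest, by less than 1 normalized count from D, and the intervals of all 4 libraries overlapped. The log2 fold change was 0.38 by edgeR (the authors' deposited table) (unadjusted p-value 0.650) and 0.25 ± 0.632 by DESeq2 (the authors' deposited table), an interval of -0.99 to 1.48. At a similar base mean 50 transcripts were past the edgeR threshold, 5 of them positive, and the smallest of the 5 was 4.25. The other transcript with reads, NM_001298380, had 5, 5 and 1 reads in A, C and D, against 4 in B, and a log2 fold change of -0.03 by edgeR (the authors' deposited table). B lay inside the range of the other libraries for that transcript, and its value gives no direction.

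Orai forms the entry channel and lies on chromosome arm 2R. NM_001274134 held 18 reads in A, 9 in C and 6 in D, against 9 in B, or 12.2, 9.98 and 8.55 normalized counts against 8.11. A was the highest and B the lowest, D and B differed by less than 1 normalized count, and the intervals of all 4 libraries overlapped. The log2 fold change was 0.35 by edgeR (the authors' deposited table) (unadjusted p-value 0.723) and 0.17 ± 0.658 by DESeq2 (the authors' deposited table), an interval of -1.12 to 1.46. NM_137429 had 1 read each in A and C and 0 in D and B. Its deposited edgeR value of 2.68 rests on those 2 reads, every library being under the floor of 3 reads, and no fold is read from it. The remaining 3 Orai transcripts were listed at 0. The Orai span overlaps CG30323 and olf186-M on its own strand.

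**Figure D1:**
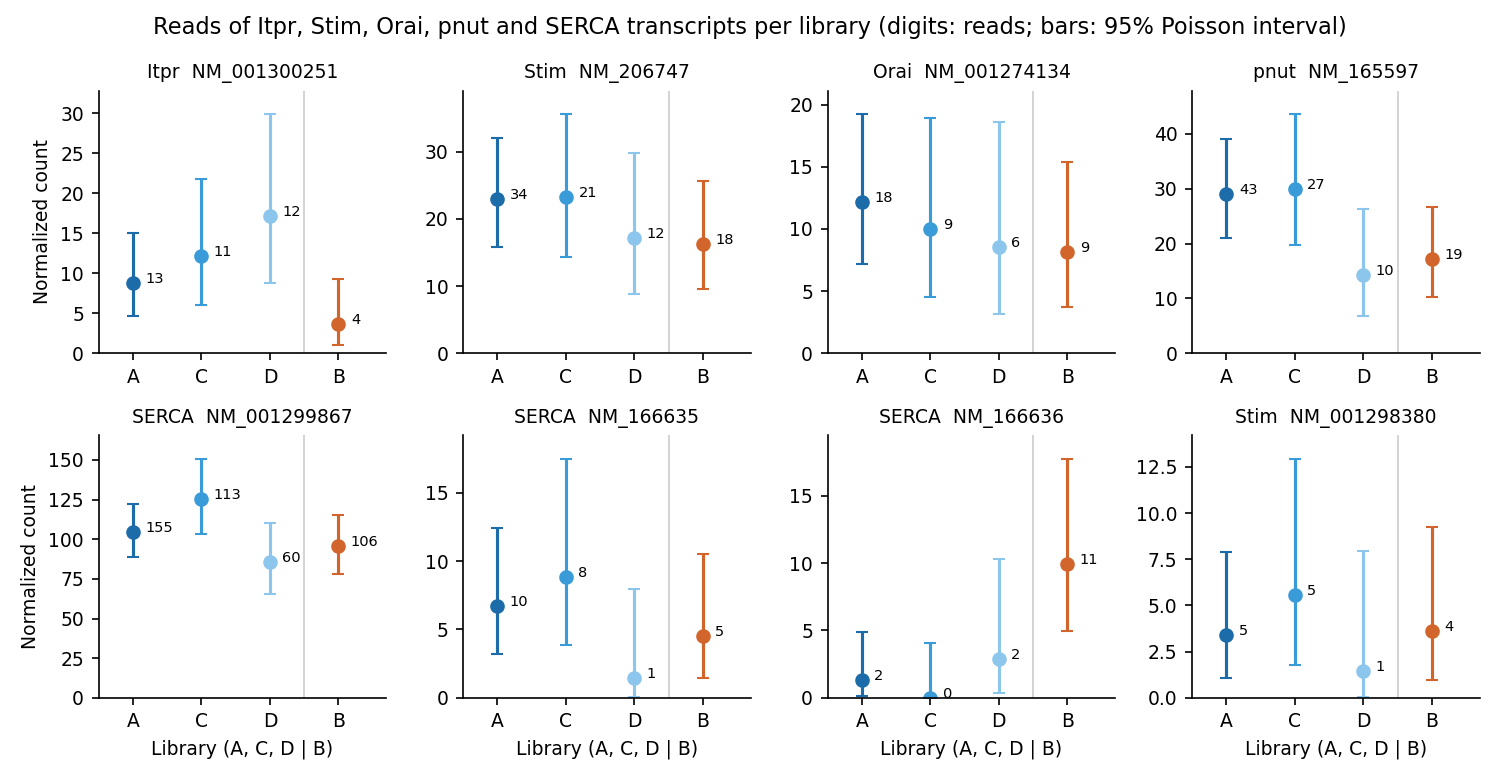
Normalized counts (vertical axes, from 0) of 8 transcripts in libraries A, C and D, left of the grey line, and B, right of it. Points are the reads decoded from the base mean divided by the size factor, digits are reads, and bars are exact 95% Poisson intervals. For SERCA NM_001299867, whose base mean fits 4 sets of reads, the set nearest to the deposited edgeR value is shown. B is lowest for Itpr with 4 reads, highest for SERCA NM_166636 with 11 reads, and inside the range of the other libraries for pnut with 19 reads.

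SERCA refills the store, is found in nearly all cells and is abundant in muscle. Of its 9 transcripts 5 had reads, and NM_166639 held 89.1% of the gene's summed base mean, with 918 normalized counts. Its log2 fold change was 0.36 by edgeR (the authors' deposited table) (unadjusted p-value 0.434) and 0.32 ± 0.409 by DESeq2 (the authors' deposited table), an interval of -0.48 to 1.13. At a similar base mean 14 of 816 transcripts were past the edgeR threshold, 4 of them positive, the smallest of the 4 being 1.92. Reads per library could not be given at this level. The SERCA span overlaps CG2812 on the opposite strand.

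NM_001299867, with a base mean of 103, was the next SERCA transcript. Its base mean fits 4 sets of whole reads, and the log2 ratio of the A, C and D mean to B in 1 of the sets was 0.14, the deposited edgeR value, while the nearest other set was 1.01 log2 units away. For 565 transcripts with base means from 20 to 30 that ratio lay a median of 0.0180 from the deposited value. The set gave 155 reads in A, 113 in C and 60 in D, against 106 in B, or 105, 125 and 85.5 normalized counts against 95.5. B lay inside the range of the other libraries.

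NM_166636 went the other way from the better-covered SERCA transcripts. It held 2 reads in A, 0 in C and 2 in D, against 11 in B, that is 1.35, 0 and 2.85 normalized counts against 9.91 (95% interval 4.95 to 17.7). B was above the other libraries, its interval did not overlap that of A (0.164 to 4.88) but did overlap that of D (0.345 to 10.3), and the upper limit of C, with 0 reads, was 4.09. B was the highest of the 4 for 26.8% of the transcripts with a base mean from 3 to 30. The log2 fold change was -2.82 by edgeR (the authors' deposited table), with an unadjusted p-value of 0.0157, the only one under 0.05 among the 19, and a false discovery rate of 0.868. By DESeq2 (the authors' deposited table) it was -0.83 ± 0.576 with an adjusted p-value of 0.9999. NM_166635 held 10, 8 and 1 reads in A, C and D, against 5 in B, and had a log2 fold change of 0.39 by edgeR (the authors' deposited table). NM_166638 had 1 read, in B.

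Muscle markers were read beside SERCA. Of 10 muscle genes listed, 6 had enough reads, that is a base mean of at least 10 in some transcript, 5 of these were negative, that is higher in B, and the median log2 fold change was -1.69. None was past the edgeR threshold, and Mhc, the muscle myosin heavy chain and the 1 gene of the 6 with an unadjusted p-value under 0.05, had -2.31 (0.00408) by edgeR (the authors' deposited table). Mhc held 10, 2 and 10 reads in A, C and D, against 41 in B. Among all 6596 genes with such a transcript, 51.6% were positive, with a median of 0.01. Of those 6596 genes, 9.17% had an unadjusted edgeR p-value under 0.05. The base means of the 6 muscle genes summed to 28355 normalized counts over all libraries, and sums per library could not be given. Most of that sum came from Act57B (15816) and Mlc2 (12269). The part of muscle RNA in the value of NM_166636 was not tested. In pooled tissue, fewer cells of a type and less RNA per cell cannot be told apart.

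Among the septins, pnut on 2R had 1 transcript with reads, NM_165597, and NM_057716 was listed at 0. NM_165597 held 43 reads in A, 27 in C and 10 in D, against 19 in B. In normalized counts A had 29.0 (21.0 to 39.1), C 29.9 (19.7 to 43.6) and D 14.3 (6.84 to 26.2), against 17.1 in B (10.3 to 26.7). A and C were high and D and B low, so the sides overlapped. The log2 fold change was 0.53 by edgeR (the authors' deposited table) (unadjusted p-value 0.528) and 0.33 ± 0.629 by DESeq2 (the authors' deposited table), an interval of -0.90 to 1.57.

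Septin1, which forms filaments with Pnut and Septin2, had a base mean of 6449 normalized counts in its 1 transcript. The log2 fold change was -0.04 by edgeR (the authors' deposited table), with an unadjusted p-value of 0.909, and -0.03 ± 0.397 by DESeq2 (the authors' deposited table), an interval of -0.81 to 0.75. At a similar base mean 6 of 285 transcripts were past the edgeR threshold, the smallest with a change of 1.46. Septin4, X-linked like Septin1, had 99.5% of its summed base mean in NM_206766, at 250 normalized counts. That transcript had a log2 fold change of 0.32 by edgeR (the authors' deposited table) (unadjusted p-value 0.605) and 0.28 ± 0.460 by DESeq2 (the authors' deposited table), an interval of -0.62 to 1.18.

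The other septin values rest on 8 reads or fewer each. Septin2 NM_001275835 had 2 reads, both in A. Septin5 NM_165578 had 3, 2 and 0 reads in A, C and D, against 3 in B, and NM_143704 had 1, 2 and 0 against 0. Septin4 NM_167534 had 0, 2 and 0 against 1, and NM_167530 had 1, 0 and 0 against 1. Every library was at or under 3 reads for these transcripts, so no fold is read from them. Septin2 and Septin5 are close paralogs, and how reads that match both were counted is not given in the sources used here. A noncoding gene, asRNA:CR46044, lies opposite Septin2.

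**Figure D2:**
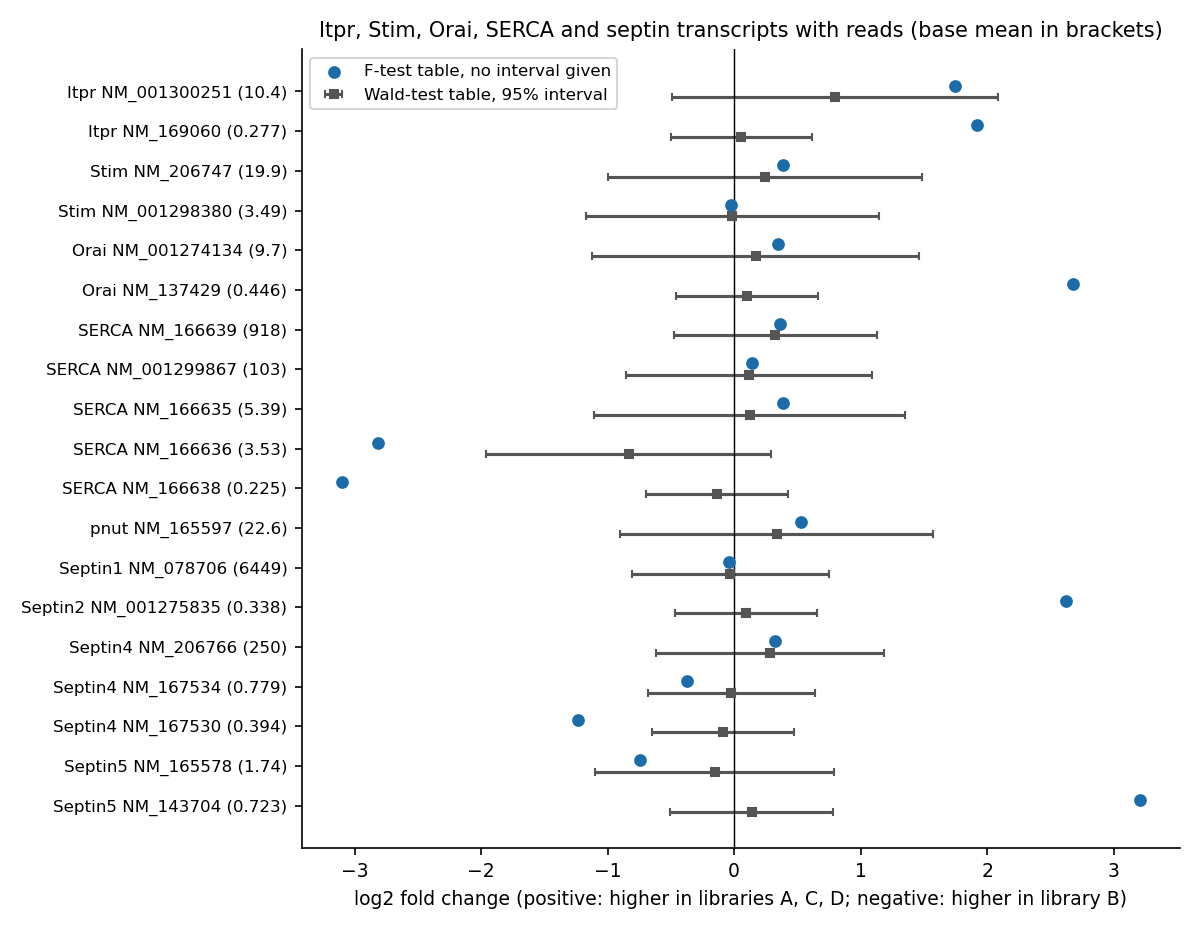
The log2 fold change (horizontal axis, positive for a higher level in A, C and D, negative for a higher level in B) of the 19 transcripts with reads, in the edgeR table of F tests (circles) and the DESeq2 table of Wald tests (squares with 95% intervals from the standard error). Every DESeq2 interval includes 0, and edgeR values beyond 2 log2 units in size belong to transcripts with 15 reads or fewer.

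**Figure D3:**
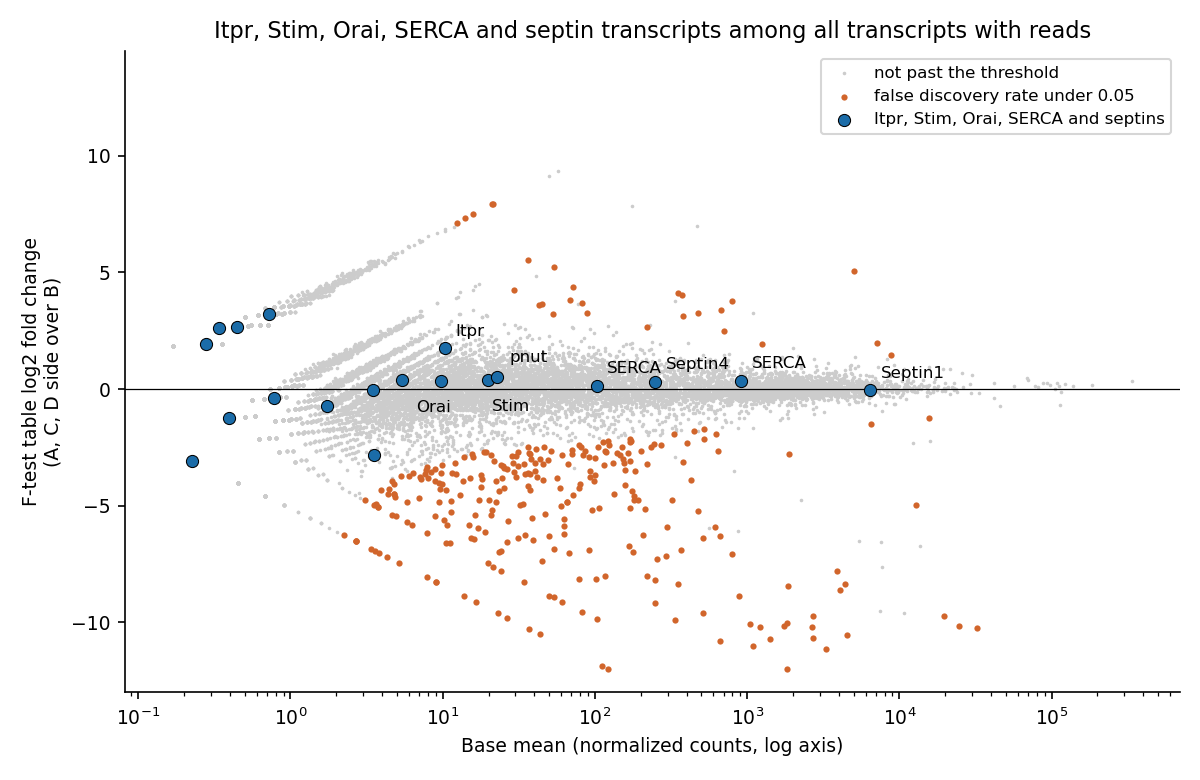
Values of log2 fold change in the edgeR table of F tests (vertical axis, A, C and D side over B) against the base mean (log axis, normalized counts) for the 15342 transcripts with reads, with the 296 past a false discovery rate of 0.05 in orange and the 19 described here in blue. The 7 blue points from base mean 10 up lie between -0.04 and 1.74, among grey points.

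Other genes of the pathway were read from 4 lists, with 1 transcript for each gene, the one with the highest base mean, where that was at least 10. None of the 26 such genes was past the threshold in either of the authors' deposited tables, against 3.59% of 6596 genes in the edgeR table and 2.94% in the DESeq2 table. At an unadjusted edgeR p-value under 0.05 there were 4, against 9.17% of the 6596. The median log2 fold change of all 6596 genes was 0.01 in the edgeR table, and 51.6% of them were positive.

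Of 18 genes listed around the making and removal of IP3, 11 had enough reads, 7 of them positive and 4 negative. Their median was 0.04 in the edgeR table. The list also holds genes that do not themselves make or remove IP3, such as those of protein kinase C. The most positive was Gbeta76C, the G protein beta subunit of photoreceptors, at 2.64 with an unadjusted p-value of 0.0226 by edgeR (the authors' deposited table). It held 12, 39 and 0 reads in A, C and D, against 3 in B, so most reads were in C, and D lay below B. The most negative was inaC, a protein kinase C of the eye, at -2.28 with an unadjusted p-value of 0.00627 by edgeR (the authors' deposited table). It held 13, 5 and 2 reads in A, C and D, against 33 in B. IP3K1, which phosphorylates IP3 and was named after its values were seen, had -1.89 with a false discovery rate of 0.144 by edgeR (the authors' deposited table). By DESeq2 (the authors' deposited table) IP3K1 had -1.58 ± 0.495 with an adjusted p-value of 0.0608.

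Of 15 genes listed for ER and mitochondrial calcium, 14 matched a gene name, 7 had enough reads and 5 of these were positive. Their median was 0.56 in the edgeR table. The list includes calmodulin, which is a cytosolic calcium sensor and not an ER or mitochondrial protein. Cam, calmodulin, was the most positive at 1.21 (unadjusted p-value 0.00980, false discovery rate 0.629 by edgeR (the authors' deposited table)). Cnx99A, an ER chaperone of the calnexin family, was the most negative at -0.48 by edgeR (the authors' deposited table), with 37, 15 and 5 reads in A, C and D, against 26 in B. RyR, the other large ER release channel, had 2, 2 and 0 reads in A, C and D, against 0 in B, in its best-covered transcript and was not read further; it was named after its values were seen.

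Of 7 plasma-membrane genes, only the 2 extrusion genes had enough reads. PMCA, the calcium pump, had 0.95, and Calx, the sodium-calcium exchanger, 0.79 by edgeR (the authors' deposited table). PMCA held 23, 24 and 23 reads in A, C and D, against 14 in B, and Calx 16, 33 and 6 against 12. Of 10 partners of septins in cytokinesis 6 had enough reads, 3 positive and 3 negative, with a median of -0.03. They ran from scra, which encodes anillin, at -0.26 to sqh, the myosin regulatory light chain, at 0.80 by edgeR (the authors' deposited table).

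Cell type markers gave the following values. Of 10 neuron genes 9 had enough reads and all 9 were positive, with a median of 0.45 and 0 past the edgeR threshold. Positive values were also seen for 4 of 5 glia genes and 4 of 7 neuroblast genes, with medians of 0.21 and 0.17. For dividing cells 3 of 4 genes were positive, with a median of 0.42. Beside these counts, 51.6% of all 6596 genes were positive, with a median of 0.01. Defining markers of the labelled tissue were present, elav of neurons with a base mean of 2614 and repo of glia with 5413. The driver insertion of the knockdown samples lies in elav itself, and its part in the elav value was not tested. Of 6 salivary gland genes 5 had enough reads, 4 of these were negative and 3 were past the edgeR threshold, against 3.59% of all 6596 genes. Both fat body genes with enough reads, of 6 listed, were negative, with 0 past the edgeR threshold, and 1, the larval serum protein gene Lsp1alpha, had an adjusted p-value of 0.0386 by DESeq2 (the authors' deposited table), a call made for 2.94% of all genes. The part of tissue make-up in the values of Itpr, Stim, Orai and SERCA was not tested.

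**Figure D4:**
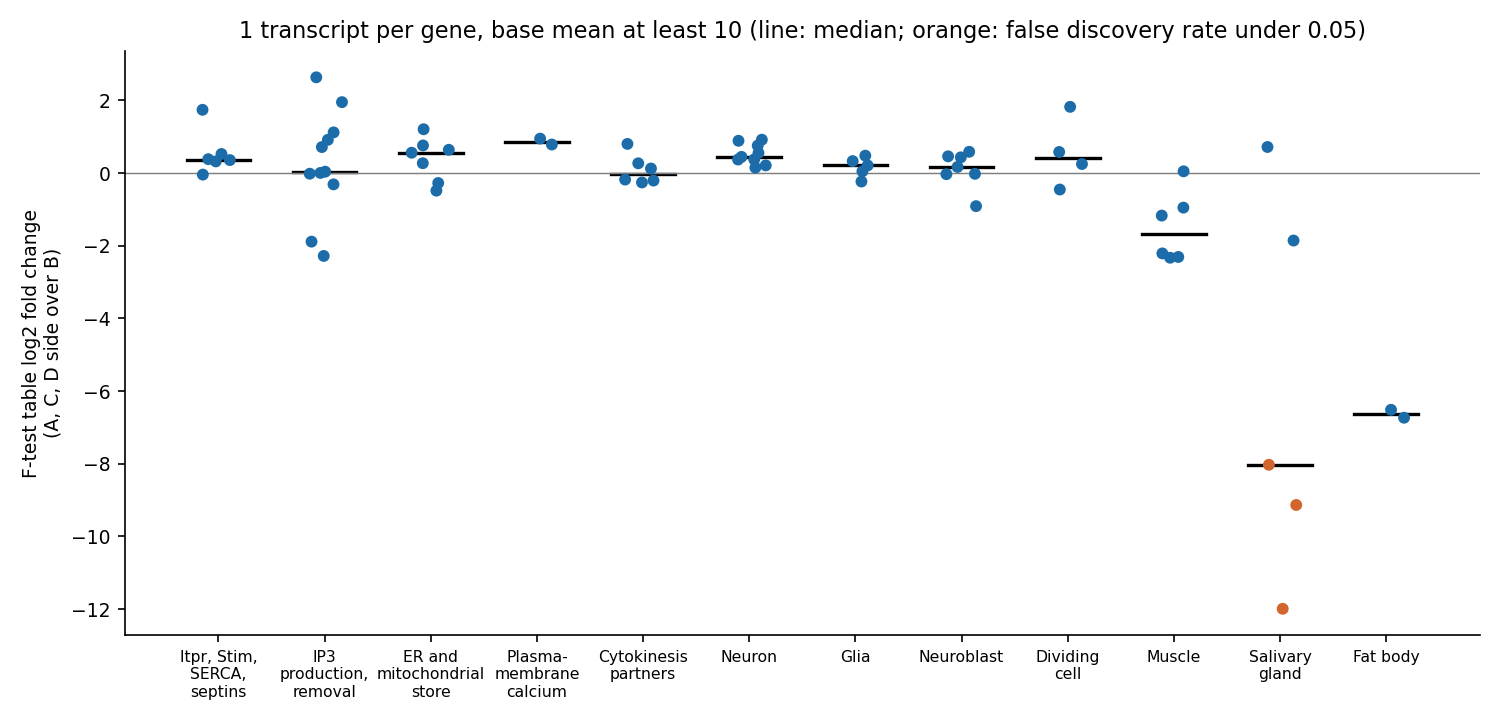
For each gene, the log2 fold change in the edgeR table of F tests (vertical axis, A, C and D side over B), 1 transcript a gene with a base mean of at least 10, for the 6 genes described here with such a transcript, 4 pathway lists and 7 cell type lists. Lines are medians and orange points have a false discovery rate under 0.05. The 3 orange points are all salivary gland genes, and the first 5 columns hold none.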

How the data were processed

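The authors deposited 2 tables of their comparison between the groups, with 1 row for each of 34115 RefSeq transcripts. Per the submitters' processing notes the tools were HISAT2, featureCounts, DESeq2 and edgeR and the build was dm3; their settings are not given in the sources used here. Per the file headers, the DESeq2 table holds a base mean (a signal, read counts divided by size factors by the authors and averaged), and both tables hold the authors' log2 fold change. The deposited Wald and F statistics are each a test score, and the deposited p-values are unadjusted and adjusted. The number of per-sample columns left out was 0.

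The authors' edgeR values were the main result and their DESeq2 values an alternative; no differential test was run here. Intervals on the authors' DESeq2 values were made from the deposited standard error at the 95% level. Steps of single reads were found from base means up to 0.5, refined by least squares, and each base mean up to 30 was written as whole reads in the 4 libraries within 2.0e-08; 9921 of 9921 had 1 set. SERCA NM_001299867, above that limit, was read within 6.0e-08 with the authors' edgeR value as a guide, a step chosen after the data were seen. Poisson intervals (95%) and floors of 3 reads cover counting error only. Base means summed to 9624228 normalized counts, and depth per labelled sample is not known. B has no replicate, so the spread behind the p-values and standard errors can come only from A, C and D. The labels do not say whether samples are separate crosses, so that spread may be technical. The decoding was tested on simulated data.

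Gene names and arms came from the RefSeq table of Release 6 plus ISO1 MT, which matched 33994 transcripts, and exon structure from Ensembl BDGP6.54. No coordinates or sequences are given, because the builds differ from dm3 and no sequence was used here. Named genes were the 9 genes, then for each pathway list the most positive and most negative gene and any call; from the cell type lists, defining markers a result turns on. IP3K1, RyR, Mhc, Act57B, Mlc2 and Lsp1alpha were named after their values were seen. Members, lists and tests were chosen with earlier results of these data known. Python 3.11.15, numpy 2.4.6, pandas 2.3.3, scipy 1.17.1 and matplotlib 3.10.9 were used.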

Additional observations from a re-analysis of the deposited data

How the results depend on the processing

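Of 49 combinations of result and alternative setting, 45 kept their direction and side of the threshold or stayed within the limits set for a value, and the cause was not tested for the other 4. The count of called transcripts among the 35 was 0 in the edgeR table, in the DESeq2 table, at a threshold of 0.01 and with p-values adjusted only over base means from 10 up, while calls over all transcripts were 296, 208, 235 and 304. The median of the septin partner list turned positive, to 0.13 with a minimum base mean of 1 and to 0.0366 when every transcript above the minimum of 10 was used. The median of the plasma-membrane list was 0.51 in the DESeq2 table in place of 0.87, and that of the IP3 list 0.17 with a minimum base mean of 1 in place of 0.04. Weighted over its transcripts, Septin5 had a log2 fold change of 0.42 in place of -0.74, on 11 reads in all. With a tolerance 10 times wider, 9897 of the 9921 low base means had 1 set of reads.

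No paired analysis was possible because neither table gives a value for any one labelled sample. The fits that leave out a replicate, the other normalization and the filter on counts were not run for that reason. At base means near that of Itpr the smallest called change was 2.79 log2 units in either direction and 7.11 among positive ones, and few reads limit these values.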
